A study of Mus musculus with 12 samples.

Results

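The genes described here are 8 mouse genes of the creatine kinase and adenine nucleotide shuttle: Ckm, Ckmt2, Ckb, Slc6a8, Slc25a4, Slc25a5, Vdac1 and Mb. They were chosen by name, with earlier results of these data known. All of their probes were followed: 9 of the 39429 probes on the array, since Ckb has a pair and every other gene has 1. All 9 were well above background on every one of the 12 arrays, and 30358 probes passed the filter used for the tests. Left ventricular tissue of C57/Bl6 mice was sectioned for total RNA, and 3 arrays were made for each of 4 groups. The groups were wild type and CnAb1 transgenic (overexpressing CnAb1, a variant of the catalytic subunit of the phosphatase calcineurin), each after sham surgery or trans aortic banding (TAC), which narrows the aorta and loads the ventricle with pressure. By the protocol and source names, tissue was taken 21 days after surgery in all groups. The time label of the sham groups gives another value, and 21 days was used here. The labels used here give no age, no promoter for the transgene, no number of founder lines and no statement that each array is a separate animal; if arrays share animals, the p-values reflect a spread that may be technical.

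In heart muscle, ATP made inside mitochondria is exported across the inner membrane by adenine nucleotide carriers and across the outer membrane by porin channels. Mitochondrial creatine kinase, which sits between the membranes, passes the phosphate of ATP to creatine, and cytosolic creatine kinase at the sarcomere uses phosphocreatine to rebuild ATP. Creatine is not made in the heart muscle cell but taken up by a sodium-dependent transporter, and myoglobin stores oxygen for the respiratory chain. The brain-type subunit B of creatine kinase predominates in the immature heart and the muscle subunit M in the adult one.

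Ckm with Ckb and Slc25a4 with Slc25a5 are isoform pairs. In wild-type hearts the log2 ratios of Ckb to Ckm and Slc25a5 to Slc25a4 were 1.45 and 0.71 higher after banding. Under quantile normalization these differences were 1.27 and 0.26. In transgenic hearts they were -0.16 and 0.03, with overlap of the groups. No ratio could pass its test with this number of arrays. The 250 bases before the annotated start of each of these genes are shown. They are from RefSeq on GRCm38.p6, 5′ to 3′ on the strand of the gene. Capitals mark matches, on either strand, to 4 motifs: the E-box CANNTG, the NFAT core GGAAA, the estrogen-related receptor half-site AAGGTCA and the MEF2 motif. The windows are chr7:19410844-19411093 (+) for Ckm, chr12:111672339-111672588 (-) for Ckb, chr8:46211063-46211312 (-) for Slc25a4 and chrX:36795347-36795596 (+) for Slc25a5.
Ckm: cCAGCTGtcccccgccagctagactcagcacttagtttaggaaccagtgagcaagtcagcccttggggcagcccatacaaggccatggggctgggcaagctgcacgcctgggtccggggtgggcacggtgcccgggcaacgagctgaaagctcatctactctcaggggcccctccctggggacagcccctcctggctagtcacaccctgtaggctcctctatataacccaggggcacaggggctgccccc
Ckb: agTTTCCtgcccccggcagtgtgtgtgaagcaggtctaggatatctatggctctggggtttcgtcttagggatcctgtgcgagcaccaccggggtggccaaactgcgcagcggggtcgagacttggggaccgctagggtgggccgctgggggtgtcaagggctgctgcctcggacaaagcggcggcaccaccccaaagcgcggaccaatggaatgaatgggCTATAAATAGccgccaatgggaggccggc
Slc25a4: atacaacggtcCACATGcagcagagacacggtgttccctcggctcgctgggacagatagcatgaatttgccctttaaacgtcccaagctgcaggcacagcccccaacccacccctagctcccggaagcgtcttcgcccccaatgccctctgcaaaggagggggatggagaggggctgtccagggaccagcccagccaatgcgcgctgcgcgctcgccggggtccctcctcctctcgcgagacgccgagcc
Slc25a5: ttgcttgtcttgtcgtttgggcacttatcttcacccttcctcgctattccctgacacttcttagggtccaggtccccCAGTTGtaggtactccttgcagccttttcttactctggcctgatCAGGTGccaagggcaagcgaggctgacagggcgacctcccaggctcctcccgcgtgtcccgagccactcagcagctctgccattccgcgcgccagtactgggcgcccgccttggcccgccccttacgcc

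The Ckm and Slc25a4 windows held 1 E-box each, with the first base at -249 and -239 from the start, and the Slc25a5 window held a pair, at -173 and -129. The Ckb window held no E-box; it had a GGAAA match on the minus strand at -248 and a MEF2 match at -29, which overlaps a TATA-like stretch. Among all 32851 windows of this length, 66.2% held CANNTG, 55.6% GGAAA, 4.08% AAGGTCA and 2.92% the MEF2 motif, so E-box and GGAAA matches are common. The windows differed more in CG dinucleotides: 6 in Ckm, the median of all windows, against 16 in Ckb, 18 in Slc25a4 and 14 in Slc25a5. Their GC content was similar, at 64.8%, 62.8%, 64.8% and 61.6%, against a median of 52.4%. A window was found for 7 of the 8 members, and AAGGTCA was matched in 1 member, at -106 in the second of a pair of windows of Vdac1, on the minus strand. A match is a run of letters and no binding was measured here.

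All levels below are log2 processed signal minus the 75th percentile of the same array, and a difference of 1 is a change of 2-fold. The 75th percentile itself differed between the groups: it was 8.89 to 9.16 in wild-type sham, 9.78 to 9.83 in wild-type TAC, 9.40 to 9.42 in transgenic sham and 9.40 to 9.77 in transgenic TAC. The direction of several members therefore depends on the scaling, as the comparison of scalings below shows. The tissue label matched its markers as far as heart muscle goes: the cardiomyocyte list was measured in all groups at a summed level between 1600 and 2710 times the 75th percentile. The list of atrial markers summed to 1.54 to 3.3 on the same scale, and the chamber was not tested. Transgenic sham array 2 stood apart, with 37.2% of probes well above background against 60.3% to 78.2% on the others. Comparisons that use it are given without it too. Ppp3cb, the gene that gives rise to CnAb1, differed by -0.27 in sham and 0.12 in TAC between the genotypes (adjusted p = 0.181 and 0.509, limma); its probe is not known to lie in the CnAb1 variant and so checks nothing about the transgene. The arrays lay on 5 slides, and only some slides held more than 1 group.

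After banding in wild-type hearts, 5 of the 8 genes had lower levels: Ckm, Ckmt2, Slc25a4, Vdac1 and Mb, by 0.64 to 1.02 on the log2 scale. The brain-type kinase Ckb, the creatine transporter Slc6a8 and the second carrier Slc25a5 did not pass the test. So 5 of 9 probes were called lower and 0 higher at a Benjamini-Hochberg adjusted p under 0.05 in limma, beside 11.1% lower and 9.08% higher (20.2% in all) among all probes tested; without any scaling between arrays the signs for Ckmt2, Slc25a4 and Mb turned, to 0.10, 0.04 and 0.09. In all 5 the TAC arrays lay below the sham arrays, as did those of 27.1% of all probes. The members were chosen with earlier results of these data known, so their counts beside all probes are only a description. With the slide as a fixed term none of the 5 passed (adjusted p = 0.0532 to 0.122, limma), while the values stayed negative, and with the slide as a random block all 5 passed. In whole tissue, fewer cells of a type and less RNA per cell cannot be told apart.

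Ckm encodes the muscle subunit of cytosolic creatine kinase and showed the widest fall of the 9 probes. Its levels were 6.01, 5.89 and 6.19 in wild-type sham, 5.12, 5.27 and 4.63 in wild-type TAC, 5.53, 5.45 and 5.44 in transgenic sham, and 5.79, 5.47 and 5.52 in transgenic TAC. Every wild-type TAC array was below every other array, the third most of all, and the transgenic groups overlapped each other between the wild-type groups. The wild-type TAC mean was 5.01 ± 0.34 (SD, n = 3) against 6.03 ± 0.15 in sham (SD, n = 3), a difference of -1.02 ± 0.17 (SE), or 0.492-fold, with a 95% interval of -1.40 to -0.64 (adjusted p = 0.00418, limma). Without wild-type TAC array 3 the difference was -0.83 and still passed. Within the slide that held arrays of both wild-type groups, the 1 TAC array lay 0.68 below the mean of the sham pair (a difference of -0.68).

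Ckmt2 is the sarcomeric mitochondrial creatine kinase of muscle. Its wild-type levels were 8.32, 8.44 and 8.41 in sham and 7.87, 7.88 and 7.50 in TAC, and its transgenic levels were 7.99, 8.12 and 7.86 in sham and 7.98, 7.85 and 8.16 in TAC. The wild-type groups were separate, and the transgenic arrays overlapped wild-type TAC but not wild-type sham. The wild-type difference was -0.64 ± 0.14 (SE), or 0.642-fold, with a 95% interval of -0.94 to -0.34 (adjusted p = 0.0108, limma).

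Ckb, the brain-type subunit, was measured by a pair of probes. On the first, wild-type levels were 1.48, 1.59 and 1.58 in sham and 1.90, 1.53 and 2.52 in TAC, and transgenic levels were 1.88, 1.75 and 1.68 in sham and 2.05, 1.61 and 1.53 in TAC. On the second, they were 0.53, 0.63 and 0.72, then 0.81, 0.63 and 1.46 in wild type, and 0.97, 1.03 and 0.75, then 1.25, 0.84 and 0.69 in transgenic hearts. Wild-type TAC overlapped wild-type sham on both probes, and array 3 of wild-type TAC, the lowest of all for Ckm, was the highest of all for Ckb. The wild-type differences were 0.43 ± 0.23 and 0.34 ± 0.22 (SE, adjusted p = 0.231 and 0.328, limma), and 0.16 and 0.09 without that array. Within the slide that held arrays of both wild-type groups they were -0.01 and 0.04, from 1 TAC array against a sham pair.

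Slc6a8 is the creatine transporter of the plasma membrane. Its levels were 5.01, 5.14 and 4.90 in wild-type sham, 5.32, 5.12 and 5.16 in wild-type TAC, 4.70, 4.60 and 4.85 in transgenic sham, and 4.89, 4.71 and 5.04 in transgenic TAC. The wild-type groups overlapped each other, and so did the transgenic ones, while at each surgery all transgenic arrays lay below all wild-type arrays. The difference between wild-type TAC and sham was 0.18 ± 0.13 (SE), with a 95% interval of -0.10 to 0.46 (adjusted p = 0.356, limma).

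Slc25a4 (ANT1), the adenine nucleotide carrier of heart and skeletal muscle, is the member printed 10 times on each array. Of these spots 0 to 2 were left out per array as outliers, and the SD of log2 signal over them was 0.12 to 0.20. Levels were 9.16, 9.33 and 9.25 in wild-type sham, 8.65, 8.50 and 8.52 in wild-type TAC, 8.91, 8.82 and 8.80 in transgenic sham, and 8.84, 8.51 and 8.89 in transgenic TAC. The wild-type sham arrays stood above all 9 others, and transgenic TAC overlapped both transgenic sham and wild-type TAC. The wild-type difference was -0.69 ± 0.12 (SE), or 0.619-fold, with a 95% interval of -0.96 to -0.43 (adjusted p = 0.00461, limma).

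Slc25a5 (ANT2) is the carrier isoform of growing and non-muscle cells. Its levels were 4.06, 4.16 and 4.18 in wild-type sham, 4.18, 4.22 and 4.07 in wild-type TAC, 3.92, 4.44 and 4.67 in transgenic sham, and 4.08, 4.48 and 4.28 in transgenic TAC. All 4 groups overlapped, and transgenic sham spread the most, with an SD of 0.39 (n = 3) against 0.06 in wild-type sham (n = 3). The wild-type difference was 0.02 ± 0.18 (SE), with a 95% interval of -0.39 to 0.43 (adjusted p = 0.952, limma).

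Vdac1, the porin of the outer mitochondrial membrane, had the narrowest groups. Its levels were 7.32, 7.41 and 7.34 in wild-type sham, 6.66, 6.60 and 6.58 in wild-type TAC, 7.02, 7.05 and 7.05 in transgenic sham, and 6.93, 6.83 and 7.08 in transgenic TAC. Wild-type sham was above and wild-type TAC below every transgenic array, and the transgenic groups overlapped. The wild-type difference was -0.74 ± 0.09 (SE), or 0.599-fold, with a 95% interval of -0.95 to -0.53 (adjusted p = 0.00161, limma).

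Mb, myoglobin, had levels of 8.85, 8.91 and 8.94 in wild-type sham, 8.32, 8.21 and 8.23 in wild-type TAC, 8.60, 8.41 and 8.43 in transgenic sham, and 8.59, 8.29 and 8.55 in transgenic TAC. Wild-type sham was again separate from all other arrays, and wild-type TAC overlapped transgenic TAC by its first array. The wild-type difference was -0.64 ± 0.11 (SE), or 0.640-fold, with a 95% interval of -0.89 to -0.40 (adjusted p = 0.00428, limma). Within the slide shared by wild-type arrays, the difference was -0.67 for Mb, -0.76 for Vdac1, -0.75 for Slc25a4 and -0.50 for Ckmt2, each from 1 TAC array against a sham pair. On the same slide it was 0.05 for Slc6a8 and 0.11 for Slc25a5.

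**Figure D1:**
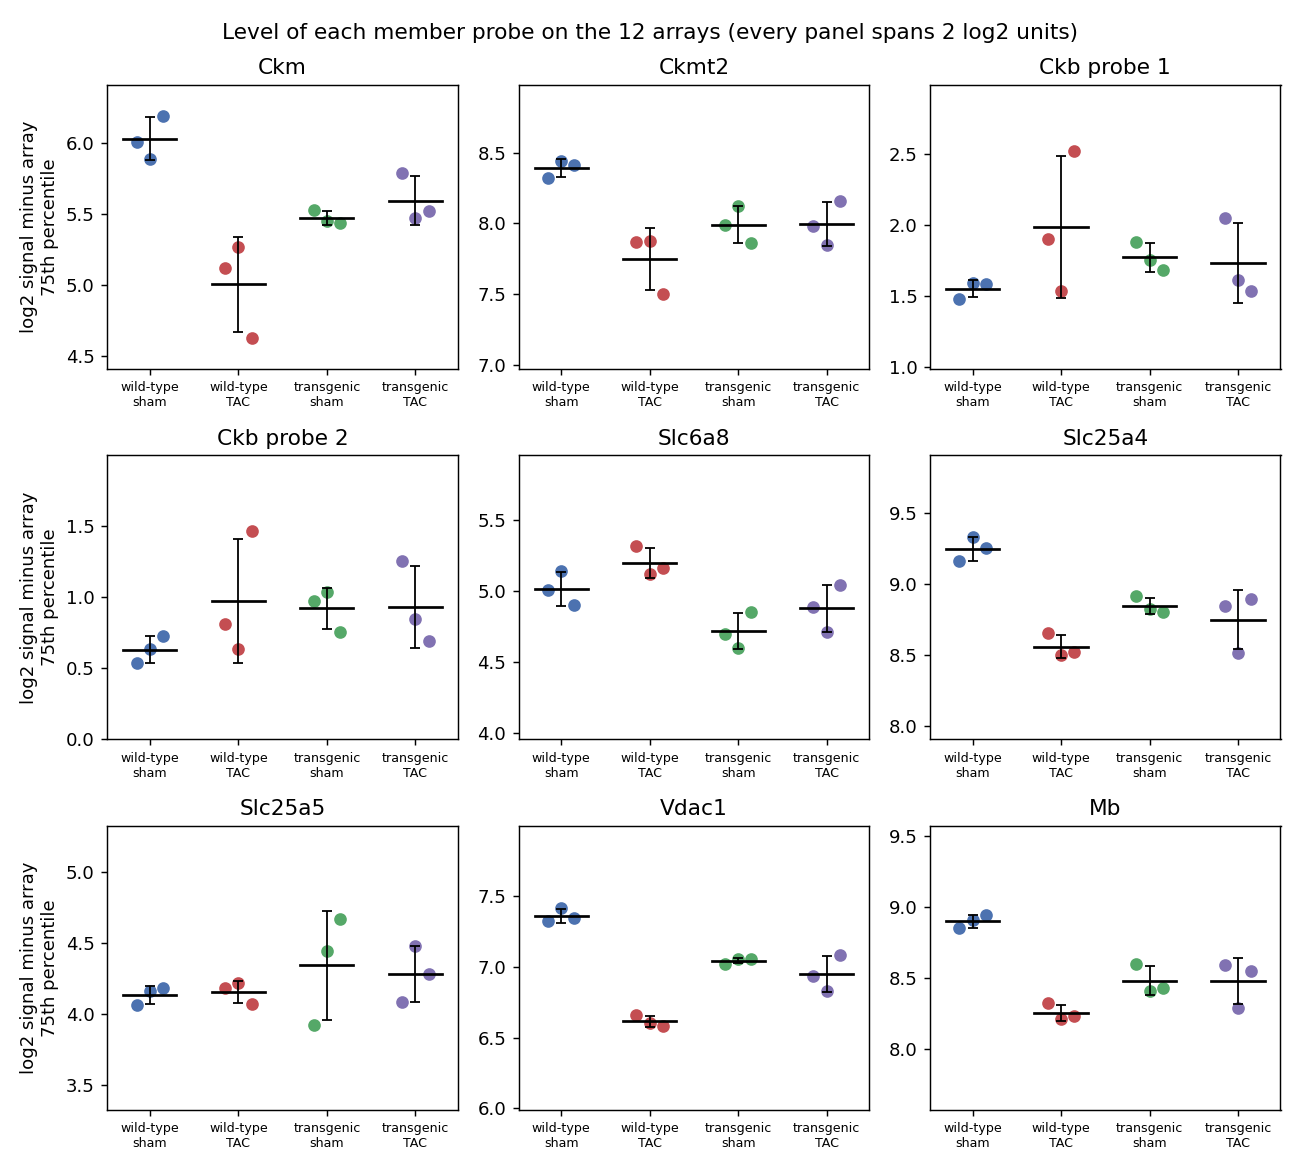
Level of each member probe (log2 signal minus the 75th percentile of the array) on the 12 arrays, by group; points are arrays, horizontal lines group means and bars 1 SD (n = 3). Wild-type TAC lies below wild-type sham for Ckm, Ckmt2, Slc25a4, Vdac1 and Mb at this scaling, an order that without scaling turns for the means of Ckmt2, Slc25a4 and Mb, while the transgenic groups overlap in every panel.

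In transgenic hearts, banding changed none of the members past the threshold. Sham and TAC overlapped for all 9 probes, whereas 8.76% of all probes did not overlap, and 0 of 9 were called, as were 0% of all probes in limma, where 1916 of 30358 had an unadjusted p under 0.05. The differences for the 5 genes that fell in wild type were 0.12 ± 0.17 for Ckm, 0.00 ± 0.14 for Ckmt2, -0.09 ± 0.12 for Slc25a4, -0.09 ± 0.09 for Vdac1 and 0.00 ± 0.11 for Mb (SE). The 95% interval for Vdac1 ran from -0.30 to 0.12, and that for Ckm from -0.26 to 0.50, so a fall of the wild-type size lay outside both. Without transgenic sham array 2 the 5 values were 0.11, 0.07, -0.11, -0.09 and -0.04 in the same order, and none passed. For Slc6a8 the difference was 0.16 ± 0.13 (SE, adjusted p = 0.814, limma), close in value to that in wild type.

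The response in transgenic hearts minus that in wild-type hearts was tested directly. It was called for 3 of 9 probes, all with a higher value in transgenic hearts, beside 3.57% of all probes called in that direction and 6.7% in either. For Ckm it was 1.14 ± 0.24 (SE), with a 95% interval of 0.61 to 1.68 (adjusted p = 0.0294, limma). For Vdac1 it was 0.65 ± 0.13 (SE, adjusted p = 0.0274, limma), and for Mb 0.64 ± 0.15 (SE, adjusted p = 0.0405, limma). Slc25a4 (0.60 ± 0.17, adjusted p = 0.0623, limma) and Ckmt2 (0.64 ± 0.19, adjusted p = 0.0743, limma) had values of the same size and missed the threshold. Ckb gave -0.47 ± 0.33 and -0.33 ± 0.31, Slc6a8 -0.02 ± 0.18 and Slc25a5 -0.09 ± 0.26 (SE).

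These calls lay close to the threshold. Without transgenic sham array 2 the values were 1.13 for Ckm, 0.65 for Vdac1 and 0.61 for Mb, with adjusted p = 0.0552, 0.0514 and 0.0768 in limma. Leaving out 1 array at a time, the adjusted p stayed under 0.05 in 5 of 12 fits for Ckm, 4 for Vdac1 and 2 for Mb, while the value ranged over 0.95 to 1.28, 0.58 to 0.71 and 0.58 to 0.73. With the slide as a fixed term the values were 0.94, 0.80 and 0.69 and none passed (adjusted p = 0.216, 0.170 and 0.188, limma), and no slide held all 4 groups. Under quantile normalization the difference of responses was 0.90 for Ckm, 0.27 for Vdac1 and 0.08 for Mb, and without scaling 0.52, 0.03 and 0.02, and none passed under either.

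**Figure D2:**
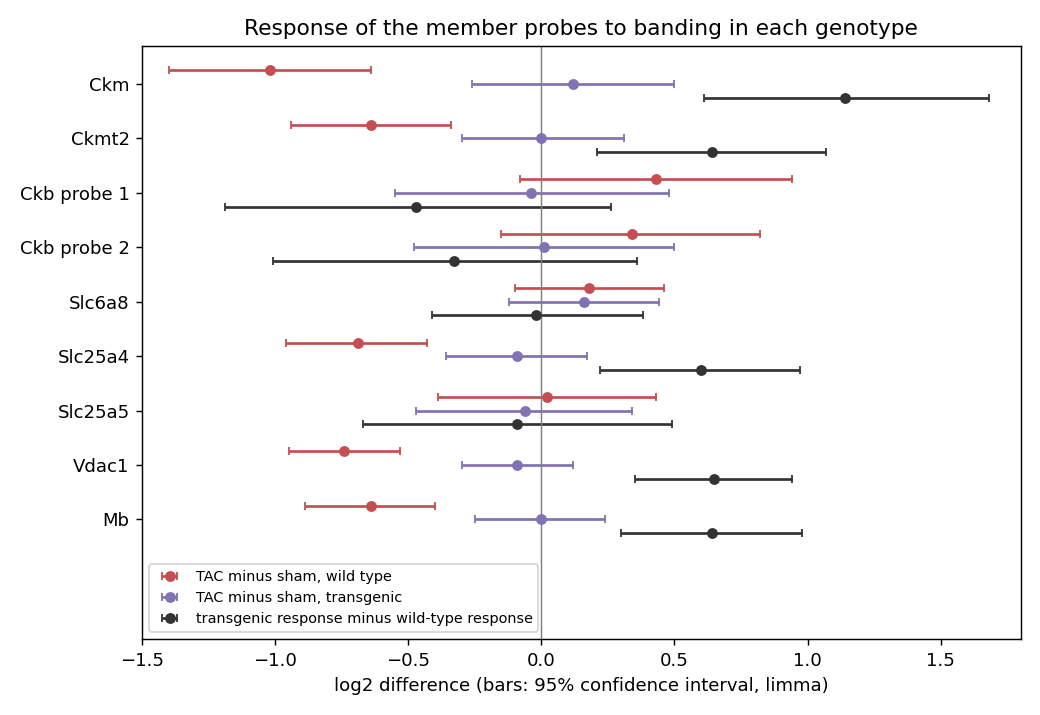
Banding response of each member probe (log2 difference, TAC minus sham) in wild-type and transgenic hearts, and the transgenic minus the wild-type response; points are limma estimates at the 75th percentile scaling and bars 95% intervals (n = 3 arrays a group). The wild-type intervals of Ckm, Ckmt2, Slc25a4, Vdac1 and Mb lie below 0, a side that Ckmt2, Slc25a4 and Mb leave without scaling, and all 9 transgenic intervals include 0.

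Among sham-operated hearts, the same 5 genes had lower mean levels in transgenic than in wild type. But 0 of 9 probes passed the test, beside 1.25% of all probes called in either direction. The differences were -0.56 ± 0.17 for Ckm, -0.40 ± 0.14 for Ckmt2, -0.40 ± 0.12 for Slc25a4, -0.32 ± 0.09 for Vdac1, -0.42 ± 0.11 for Mb and -0.30 ± 0.13 for Slc6a8 (SE). Their adjusted p-values in limma ran from 0.0977 for Mb to 0.258 for Slc6a8. The transgenic arrays lay below the wild-type arrays for all 6, and above them for both Ckb probes, against 13.8% and 8.53% of all probes without overlap in those directions. Without transgenic sham array 2 these 6 differences were -0.24 to -0.55, and none passed. Scaling moved them: on cardiomyocyte markers the value for Vdac1 was 0.04 and for Slc6a8 0.05.

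With both genotypes banded, 0 of 9 probes passed, beside 3.86% of all probes called. Ckm was 0.58 ± 0.17 higher in transgenic hearts (SE, adjusted p = 0.0852, limma) and Vdac1 0.33 ± 0.09 higher (adjusted p = 0.0773, limma), without overlap of the arrays, as for 17.5% of all probes in that direction. Slc6a8 was at -0.32 ± 0.13 (SE, adjusted p = 0.172, limma), also without overlap, as for 15% of all probes in that direction. Without scaling between arrays the values were 0.31 for Ckm, 0.06 for Vdac1 and -0.59 for Slc6a8. Each of these genes was called in 3 of 29 alternative fits of the comparison. This comparison and the wild-type banding response share the wild-type TAC arrays, and the genotype comparison in sham hearts shares the wild-type sham arrays with the same response.

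Because 5 of the members fell together relative to the 75th percentile, their response was set against other scalings of the same arrays. Without any scaling, Slc25a4 was nearly flat: its log2 signal spanned 18.21 to 18.42 over all 12 arrays, a span of 0.21, while the 75th percentile of the arrays spanned 0.94. Mb spanned 0.29, Vdac1 0.30 and Ckmt2 0.38, against 0.87 for Ckm, 1.10 for Slc6a8, 1.20 for Slc25a5 and 1.87 and 1.76 for the Ckb probes. On that scale the wild-type response of Vdac1 was 0.00 and that of Ckm -0.29 (adjusted p = 0.243, limma), and the other genes were called higher: Slc6a8 by 0.92, Ckb by 1.17 and 1.07, and Slc25a5 by 0.76, beside 46.3% of all probes called higher and 0.652% lower. Scaled on the mean of 8 cardiomyocyte markers, Ckm was at -0.42 (adjusted p = 0.0616, limma), Vdac1 at -0.13, Slc25a4 at -0.09, Mb at -0.04 and Ckmt2 at -0.03, and Slc6a8, both Ckb probes and Slc25a5 were again called higher, beside 40.7% of all probes higher and 1.14% lower. The choice between these scalings was not tested.

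The median of all probes moved with the scaling too, from -0.09 at the 75th percentile to 0.64 without scaling and 0.51 on the markers. These 3 scalings shift all probes of an array alike, so they leave the distance from that median as it is: -0.93 for Ckm, -0.60 for Slc25a4 and -0.55 for Mb. Under quantile normalization, where the median was -0.04, it was -0.75 for Ckm, -0.31 for Vdac1, -0.02 for Slc25a4 and 0.02 for Mb. After normexp background correction the median was 0.28 and Ckm lay at -1.52 from it; there Ckm and Vdac1 passed, and Ckmt2 did not (-0.85, adjusted p = 0.0601, limma), nor did Slc25a4 (-0.86) or Mb (-0.82). Quantile normalization, which does not shift all probes alike, kept the calls for Ckm (-0.79, adjusted p = 0.0191, limma) and Vdac1 (-0.35, adjusted p = 0.0256, limma), but not for Slc25a4 (-0.06), Mb (-0.02) or Ckmt2 (-0.14), and it called Slc6a8 higher (0.41, adjusted p = 0.0301, limma). Under it 7.75% of all probes were called lower and 8.29% higher.

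**Figure D3:**
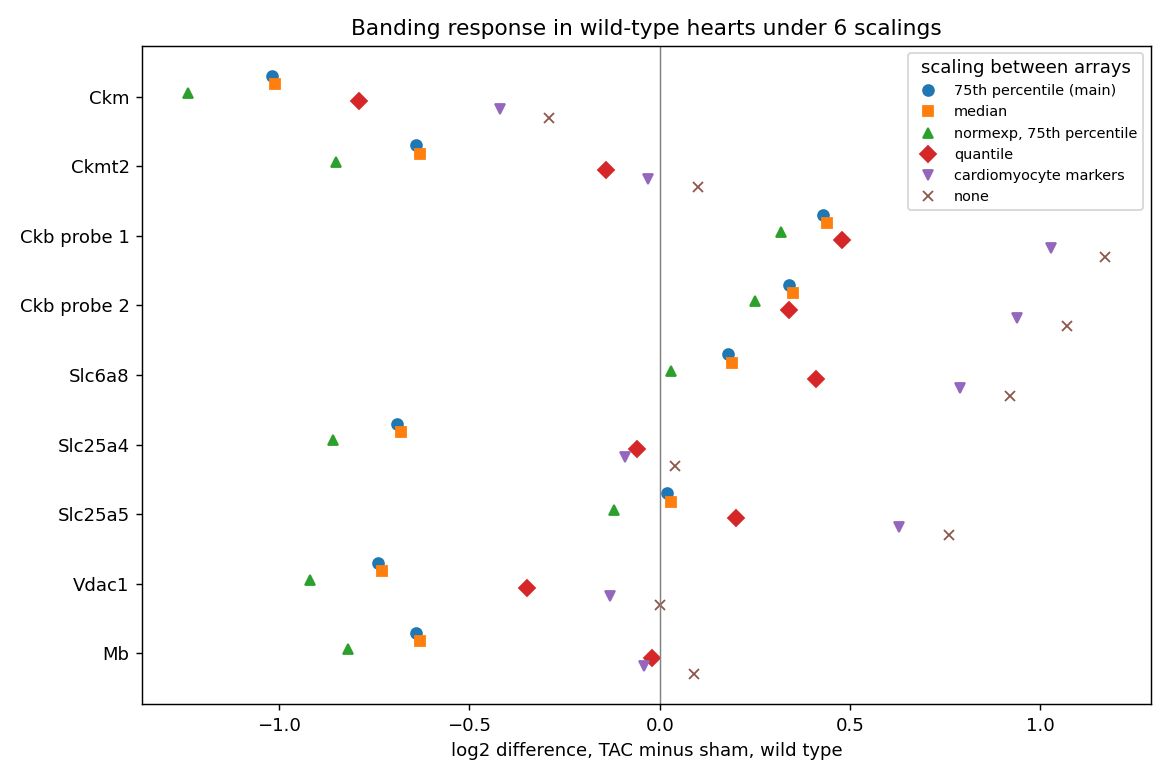
Banding response of each member probe in wild-type hearts (log2 difference, TAC minus sham) under 6 ways of scaling the arrays, 1 symbol each. Ckm lies below 0 under all 6 and both Ckb probes above 0 under all 6, while Ckmt2, Slc25a4, Vdac1 and Mb range from clearly negative at the 75th percentile to 0 or just above without scaling.

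The strength of a probe's signal also went with its response. Ranked by mean signal, Slc25a4, Mb, Ckmt2 and Vdac1 were in the top 1% of probes tested, a band of 304 probes whose median wild-type response was -0.50 and of which 63.8% were called lower. The values of these 4 genes, -0.64 to -0.74, all lie below that median. The 95% intervals of Slc25a4, Mb and Ckmt2 include it, and that of Vdac1 (-0.95 to -0.53) does not. Ckm and Slc6a8 were in the band from 95% to 99%, whose median was -0.25 with 30.7% called lower; Ckm at -1.02 lay further from 0 than that median, and Slc6a8 at 0.18 on the other side of 0. Slc25a5 was between 90% and 95% (median -0.21) and the Ckb probes between 75% and 90% (median -0.10). Rank here is that of a probe's signal, which depends on the probe as well as on its transcript, and no spot of Slc25a4 was saturated.

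**Figure D4:**
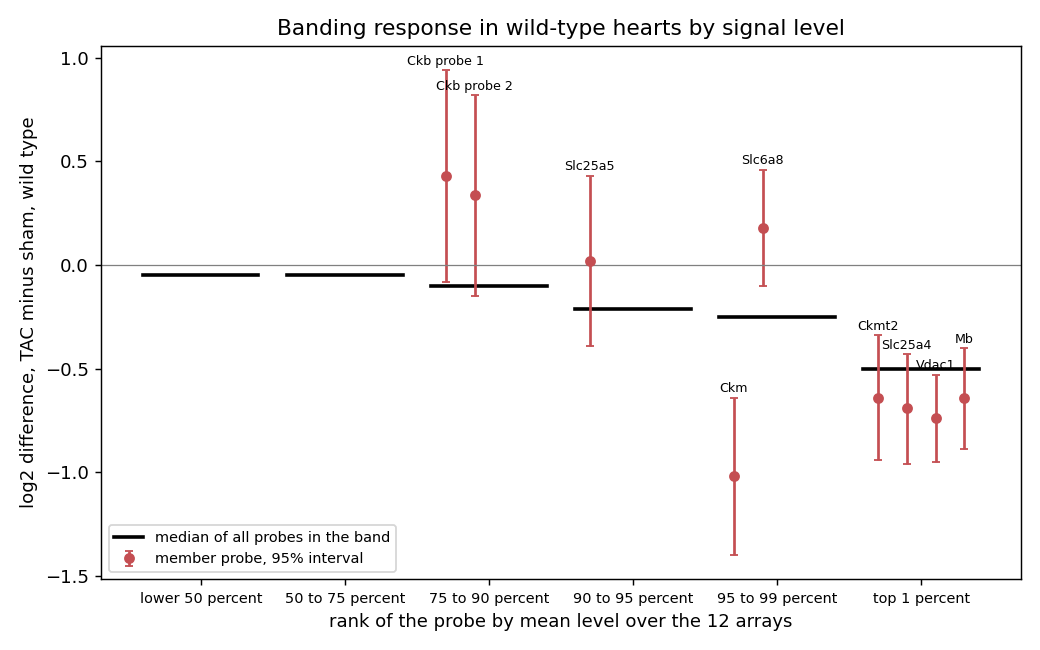
Banding response in wild-type hearts (log2 difference, TAC minus sham, at the 75th percentile scaling) by rank of the probe's mean signal over the 12 arrays; black lines are medians of all probes in a band, and red points are member probes with 95% intervals. The 4 members in the top 1% lie below their band's median of -0.50, which only the Vdac1 interval among them leaves out. Ckm lies well below its band's median and Slc6a8 above it. Without scaling Ckmt2, Slc25a4 and Mb lie above 0.

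Ratios between members on the same array do not change when all probes of an array are shifted alike. They are given as log2 ratios relative to their mean in wild-type sham, since a ratio of 2 probes' signals has no absolute meaning. Ckb over Ckm was -0.05, 0.18 and -0.13 in wild-type sham, 1.26, 0.73 and 2.37 in wild-type TAC, 0.83, 0.77 and 0.72 in transgenic sham, and 0.75, 0.62 and 0.49 in transgenic TAC. All 9 arrays outside wild-type sham were above it. The ratio was 1.45 ± 0.49 higher (SE, n = 3 a group) in TAC than in sham in wild type, or 2.74-fold, and 1.36 ± 0.45 higher with the second Ckb probe. Without wild-type TAC array 3 the values were 0.99 and 0.92, and with the slide as a fixed block 0.96 and 1.02. In transgenic hearts it was -0.16 after banding, with overlap (-0.63 with the slide as a fixed block). After sham surgery the transgenic arrays were 0.77 ± 0.10 above the wild-type arrays, or 1.71-fold, but 0.41 with the slide as a fixed block. Without transgenic sham array 2 these values were -0.16 and 0.78.

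Slc6a8 over Ckm was 0.02, 0.27 and -0.28 in wild-type sham, 1.21, 0.86 and 1.55 in wild-type TAC, 0.19, 0.16 and 0.43 in transgenic sham, and 0.12, 0.25 and 0.54 in transgenic TAC. The wild-type TAC arrays were above all others. The difference between TAC and sham was 1.21 ± 0.25 (SE, n = 3 a group), or 2.31-fold, in wild type and 0.04 in transgenic hearts, and after banding transgenic hearts were at -0.90 ± 0.23 against wild type. Without transgenic sham array 2 the transgenic value was -0.01.

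Slc25a5 over Slc25a4, the carrier pair, was 0.01, -0.06 and 0.05 in wild-type sham, 0.65, 0.84 and 0.66 in wild-type TAC, 0.12, 0.74 and 0.99 in transgenic sham, and 0.36, 1.08 and 0.50 in transgenic TAC. The ratio was above wild-type sham on all other arrays, and transgenic sham was the most spread. It differed by 0.71 ± 0.07 between TAC and sham in wild type (1.64-fold, or 0.26 after quantile normalization and 0.99 with the slide as a fixed block), by 0.03 in transgenic hearts, and by 0.62 ± 0.26 between the genotypes in sham (SE, n = 3 a group). Without transgenic sham array 2 the last pair of values was 0.09 and 0.56.

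Vdac1 over Slc25a4 lay between -0.09 and 0.21 on all 12 arrays, with a difference of -0.05 ± 0.03 between TAC and sham in wild type, and for Mb over Slc25a4 this was 0.05 ± 0.04 (SE). For Ckmt2 over Ckm it was 0.38 ± 0.13 (SE, n = 3 a group), without overlap, and 0.65 after quantile normalization. Mb over Ckm was 0.33, 0.07 and 0.74 in wild-type TAC against -0.03, 0.15 and -0.13 in sham, with overlap; the difference was 0.38 ± 0.21 (SE), 0.77 after quantile normalization, 0.11 with the slide as a fixed block and 0.20 without wild-type TAC array 3. Over 32 ratio comparisons, the exact two-sided permutation test gave p = 0.1, the smallest that 3 arrays against 3 allow, wherever the groups did not overlap, and 0.356 after Benjamini-Hochberg adjustment, so no ratio could pass.

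**Figure D5:**
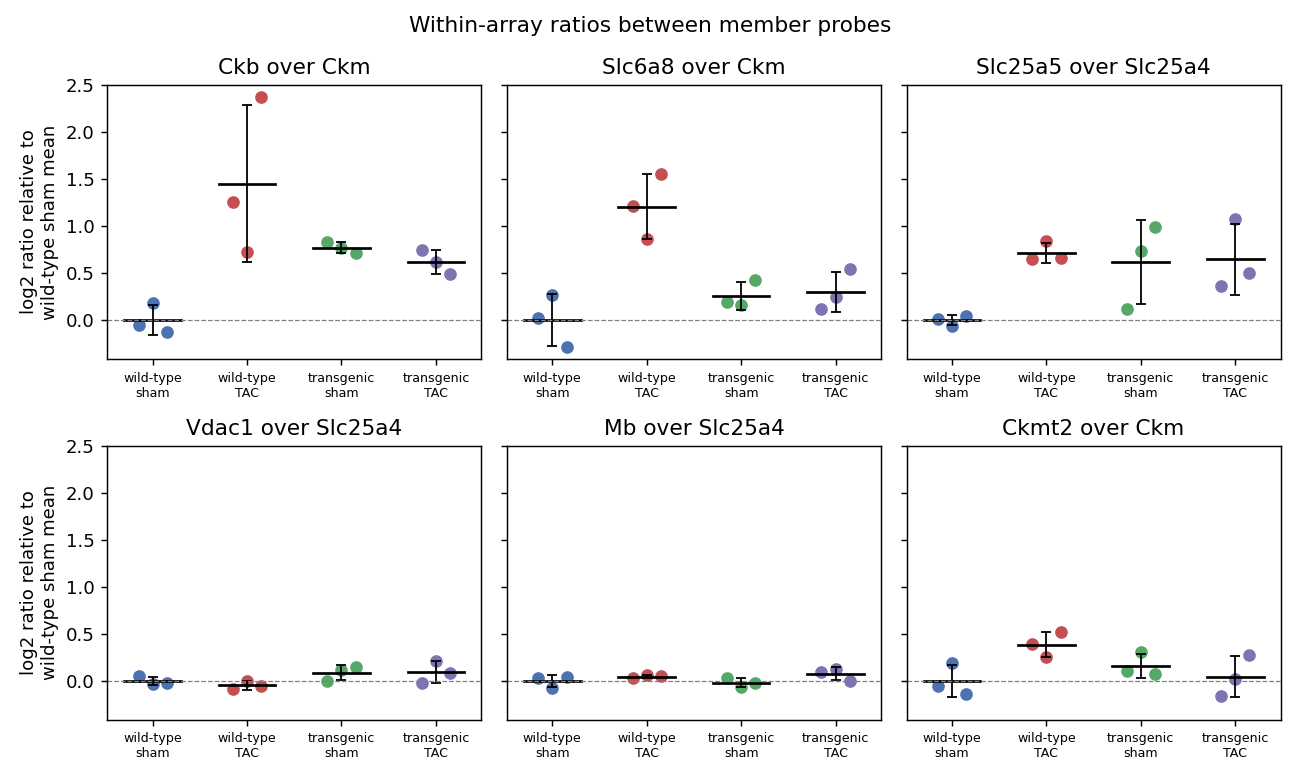
Log2 ratios between member probes on the same array, relative to their mean in wild-type sham; points are arrays, horizontal lines group means and bars 1 SD (n = 3). The ratios of Ckb, Slc6a8 and Slc25a5 to their partner lie higher in wild-type TAC than in wild-type sham, while Vdac1 and Mb keep within 0.21 of their wild-type sham ratio to Slc25a4.

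Across the 12 arrays, Mb and Slc25a4 had a Pearson r of 0.98, Slc25a4 and Vdac1 0.95, and Ckm and Ckmt2 0.90, whereas Ckb (first probe) had -0.66 with Ckm. All pairs share the group structure and the scaling, so these values only describe the arrays. Among 16538 genes, those most like each member over the 12 arrays by Pearson r were Uqcrc1, a core subunit of respiratory complex III, Oxld1 and Cars2 for Ckm (0.984 each), Atp5b and the adult myosin heavy chain Myh6 for Slc25a4 (0.99 and 0.987), Ndufv1 of complex I and the ferritin heavy chain Fth1 for Vdac1 (0.99 each) and the tropomyosin Tpm1 for Mb (0.992). For Ckb they were Fuca1 (0.922), the laminin chain Lamb2 (0.894) and thrombospondin Thbs2 (0.893). For Slc6a8 they were Xirp1 (0.901), an actin-binding protein of the intercalated disc, and Rc3h2 (0.895), for Slc25a5 Derl1 (0.951), and for Ckmt2 Gzmm (0.967).

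Related genes of phosphate transfer were followed by their brightest probe, and 39 of 41 were measured. These lists too were chosen with earlier results of these data known, so their counts are only a description. In wild-type banding 12 were called lower and 4 higher, beside 11.1% and 9.08% of all probes, with a median of -0.21 against -0.09 for all probes. In a fit of only the brightest probe of each named gene, 2270 of 16653 probes were called lower and 2282 higher. The 12 included adenylate kinases, which exchange phosphate between adenine nucleotides (Ak1 -0.63 ± 0.10, adjusted p = 0.00407, limma; Ak6 -0.36), the phosphate carrier Slc25a3 (-0.73), the coenzyme A carrier Slc25a42 (-1.06), Vdac3 (-0.51) and cyclophilin D, Ppif (-0.78). Others were the ubiquitous mitochondrial kinase Ckmt1 (-0.45), adenosine kinase Adk (-0.52), the AMP-activated kinase subunit Prkag1 (-0.71) and the nucleoside diphosphate kinases Nme2 (-0.47) and Nme4 (-0.74). The 4 higher were adenosine deaminase Ada (1.73 ± 0.22, adjusted p = 0.00178, limma), cytoglobin Cygb (1.39), the outer membrane protein Tspo (0.99) and the AMP-activated kinase subunit Prkab2 (0.67). Without scaling 19 were called higher and 0 lower, beside 46.3% of all probes higher, and on cardiomyocyte markers 17 and 0, beside 40.7%. Under quantile normalization 5 were called higher and 6 lower. The rises of Ada and Cygb passed under all 6 scalings, that of Tspo under all but normexp (adjusted p = 0.0924, limma), and that of Prkab2 not under median scaling (0.0658) or normexp (0.471).

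In transgenic hearts banding changed 0 of these 39 past the threshold, as it did 0% of all probes. The transgenic minus wild-type response was called for 7, beside 6.7% of all probes: higher for Ak1 (0.64), Adk (0.70), Prkag1 (0.66) and Slc25a3 (0.82), and lower for Ada (-2.02), Cygb (-1.44) and the calcium-regulated ATP-Mg carrier Slc25a25 (-1.36). Under quantile normalization the calls for Prkag1 (0.54) and Ada (-2.09) were left, and without transgenic sham array 2 those for Slc25a3 (0.80) and Ada (-2.09). On cardiomyocyte markers 0 were called higher and 11 lower, beside 166 higher and 6635 lower of all 30358 probes. Among sham-operated hearts, 1 of the 39 was called, beside 1.25% of all probes: Ak1 was lower in transgenic than in wild type (-0.55, adjusted p = 0.0393, limma). That call was lost under each of the other 5 scalings and without transgenic sham array 2 (-0.57, adjusted p = 0.0982, limma). With both banded, Slc25a3 was called higher (0.47) and Ada lower (-1.18) among the 39, beside 3.86% of all probes called. Both calls held without that array, but under median scaling and normexp none of the 39 passed, and under quantile normalization 0 higher and 1 lower.

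Markers of cell types also changed in wild-type hearts, some lower and others higher, where 11.1% of all probes were called lower and 9.08% higher. Of 8 cardiomyocyte markers 6 were called lower after banding and 0 higher, but 1 lower under quantile normalization and 0 lower and 1 higher without scaling. Their summed level relative to the 75th percentile went from 2620 to 2710 in sham to 1600 to 1770 in TAC, against 1910 to 2100 and 1730 to 2050 in the transgenic groups. Of 6 fibroblast markers 5 were called higher, under quantile normalization too and 6 without scaling, with sums of 91.2 to 144 in sham and 280 to 398 in TAC, against 149 to 167 and 141 to 171 in the transgenic groups. Smooth muscle and pericyte markers were called higher for 3 of 6, endothelial markers for 3 of 5 with 1 lower, and macrophage markers for 2 of 4. Of 7 skeletal muscle markers 5 passed the filter on low signals (not Myh1 and Myh4), and 1, Tnni2, was called lower (-1.40); their summed level was 1.24 to 1.84 in wild-type sham and 0.662 to 0.895 in TAC. Ckb and Slc25a5 are found in many cell types, and the part of these markers in the changes of the members was not tested.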

How the data were processed

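Total RNA was labelled with Cy3, per the labels. Spots were read out with Feature Extraction 10.7.3.1. Per the file headers, the scanner files hold intensity: the authors' processed signal, background-subtracted and not scaled between arrays. The deposited value table is in log2 and matches the scanner values after centring on each probe (r = 0.999 to 1; its direction is that of the scanner signal, and its column medians are -0.09 to 0.12). The submitters' processing notes name RMA; no label says for what. The array annotation names mm9.

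Outlier spots were left out of 43020 non-control spots, spots of a probe were averaged in log2, and the 75th percentile of the array was taken off. Of 39429 probes, 26424 were named through transcript accessions, and 30358 were well above background on at least 3 arrays. limma 3.58.1 in R 4.3.3 fitted a mean per group (8 residual and 1.79 prior degrees of freedom), two-sided, with Benjamini-Hochberg adjustment over all probes. The fit was tested on simulated data for wild-type banding over 30358 probes: it recovered 42% of 100 log2 changes of 1 and 74% of 100 changes of -2. No other probe was changed and no slide effect was simulated, whereas 6141 probes were called in the data. These rates therefore do not give the power of the real comparison. Named genes are every probe of the members, listed related genes past the threshold (1 is not reported here) and the genes most alike by r. Members and lists were chosen with earlier results of these data known. Other scalings, backgrounds, filters, variance models, slide blocks and left-out arrays were tried. The number of arrays limits the precision. Replicate numbers did not pair the arrays: 4 of 18 same-number pairs had r over 0.1.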

Additional observations from a re-analysis of the deposited data

Results flagged for a closer look

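For 3 members the banding response differed between the genotypes by a test of the difference itself (limma, transgenic minus wild-type response). The difference was 1.14 on the log2 scale for Ckm, where each wild-type TAC array lay below each sham array and the transgenic groups overlapped. It was 0.65 for Vdac1 and 0.64 for Mb, with the same pattern of arrays. These values passed at the 75th percentile scaling; under quantile normalization they were 0.90, 0.27 and 0.08 and without scaling 0.52, 0.03 and 0.02, and none passed. At the 75th percentile scaling, leaving out 1 array ended the call in 7 of 12 fits for Ckm, 8 for Vdac1 and 10 for Mb.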

How the results depend on the processing

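At the 75th percentile scaling, 6141 probes were called for wild-type banding, 0 for transgenic banding, 379 and 1171 for transgenic against wild type in sham and TAC, and 2035 for the difference of responses. For wild-type banding the count was 1423 with normexp, 14425 with array weights, 305 with the slide as a fixed block, 14250 without scaling (14052 higher, 198 lower) and 12715 on cardiomyocyte markers (12368 higher, 347 lower). In that comparison Ckm and Vdac1 were called in 26 of 29 alternatives and Slc25a4, Ckmt2 and Mb in 24, among them all 12 that leave out 1 array; without scaling Ckmt2, Slc25a4 and Mb turned to 0.10, 0.04 and 0.09. The second Ckb probe has 1 alternative fewer, since the fit of the brightest probe per gene holds 1 probe of Ckb.

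For transgenic against wild type in sham the count was 184 with quantile normalization, 202 with median scaling, 47 with normexp, 124 with no filter on dim probes, 1247 with a filter of 12 arrays above background, 1099 with a trended robust variance, 221 with array weights, 33 with a fit of only the groups compared, 47 with the slide as a fixed block and 3009 on cardiomyocyte markers. In TAC, in the same order without quantile normalization, it was 463, 39, 388, 2842, 2575, 5523, 74, 11 and 2629. For the difference of responses it was 986 with quantile normalization, 691 with median scaling, 581 with no filter, 3637 with the filter of 12 arrays, 3441 with a trended robust variance, 3547 with array weights, 4797 without scaling and 6801 on the markers, and 0 in limma with normexp (3206 at an unadjusted p under 0.05) and with the slide as a fixed block (6572).

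Leaving out 1 array gave 3192 (without wild-type TAC array 3) to 7125 for wild-type banding, 0 to 2 for transgenic banding, 76 to 736 and 179 to 1522 for the genotypes in sham and TAC, and 0 (without wild-type sham array 1) to 2624 for the difference of responses. With the replicate number as a block the counts were 5264, 0, 116, 430 and 741. These arrays share only a number; under the block the 5 members kept their calls in wild-type banding, and Ckm, Vdac1 and Mb lost theirs in the difference of responses (adjusted p = 0.0559, 0.0585 and 0.0652, limma). The slide, the signal level and the small number of arrays limit these results, and the causes of the shifts were not tested.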
